A study of Mus musculus with 33 samples.

Results

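The transcriptional maturation of microglia between postnatal day 10 (P10) and P42 was compared between the corpus callosum (CC), the white matter tract that joins the hemispheres, and the cerebral cortex (Cx), which is mostly grey matter. The comparison uses the 16 libraries of CC and Cx at P10 and at P42 out of the 33 RNA-seq libraries of the series, chosen by the region and age in the labels alone. Each of the 4 groups (CC P10, CC P42, Cx P10 and Cx P42) holds 4 libraries, 2 from female and 2 from male mice. All groups share the wildtype C57BL/6J strain, housing under SPF conditions, no treatment before cell isolation, transcardial perfusion, and sorting of microglia as CD45+, CD11b+, Gr1- cells. The remaining libraries came from the cerebellum (Cb) and from P7, and they entered the same model to estimate the spread of each gene. Neither the labels nor the methods say whether libraries came from separate animals or from pools, so the p-values measure the spread between these samples, part of which may be technical.

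Microglia are the resident macrophages of the brain. Early after birth, those in developing white matter are known for an amoeboid shape, engulfment of cells and myelin, and expression of lipid-handling and lysosomal genes, while cortical microglia at the same age are more ramified. With maturation, microglia take on the homeostatic program of surveying cells, which includes the receptors P2ry12 and Tmem119. Cholesterol from engulfed membranes is exported through the transporters Abca1 and Abcg1, whose genes are switched on by the sterol-sensing liver X receptors, whereas genes of cholesterol synthesis such as Hmgcs1 are switched on by SREBP factors when sterol is low.

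The question was which genes changed between P10 and P42 by a different factor in the CC than in the Cx. For each gene the log2 fold change from P10 to P42 in the Cx was subtracted from that in the CC, and this difference is called the interaction here. A positive interaction means that the gene moved upwards in the CC relative to the Cx, and a negative one that it moved downwards. A gene was called when the adjusted p-value of edgeR's quasi-likelihood test was 0.01 or less and the interaction was at least 1 or at most -1. DESeq2 and limma-voom were run as alternatives with the same limits. Levels are given as CPM, the read count scaled to a common library size with TMM factors. They describe a gene against itself, since they are not divided by gene length.

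The 16 libraries held between 22761090 and 44973514 reads on genes, so 1 read stood for 0.0222 to 0.0439 CPM. Between 14868 and 19359 genes had a read, with the fewest in CC P42 (14868 to 15883) and the most in Cx P10 (17935 to 19359). All 10 microglia markers examined were detected in every group, and their summed level was 48200 to 57213 CPM in CC P10, 58641 to 71727 in CC P42, 63391 to 67535 in Cx P10 and 63672 to 73479 in Cx P42. A list of 12 genes of border macrophages summed to 346 to 451 CPM in CC P10, 153 to 207 in CC P42, 674 to 731 in Cx P10 and 184 to 208 in Cx P42. Most of that list's difference with age lay in Mrc1, the mannose receptor, at 188 ± 38 CPM (SD, n = 4) in CC P10, 14.0 ± 15.2 in CC P42, 474 ± 19.8 in Cx P10 and 22.9 ± 5.01 in Cx P42. Of the 11 border macrophage genes tested, edgeR called 0 in the interaction (2 at an unadjusted p under 0.05), limma-voom 0 and DESeq2 2 (Cd163 and Siglec1). A list of 12 oligodendrocyte genes, mostly Cnp and Mbp by level, summed to 161 to 294 CPM in CC P10, 212 to 248 in CC P42, 146 to 159 in Cx P10 and 172 to 217 in Cx P42, so every CC P10 library lay above every Cx P10 library. Of these 12 genes, 3 had no read in CC P10, 2 in CC P42, 2 in Cx P10 and 1 in Cx P42. Only Opalin, a marker of myelinating cells, had no read in any of the 4 groups. The 8 genes of oligodendrocyte precursors summed to 3.29 to 19.6 CPM in CC P10, 0.0672 to 4.58 in CC P42, 0.870 to 2.59 in Cx P10 and 0.423 to 15.3 in Cx P42, again without overlap at P10. All 8 had a negative interaction, 5 of them at an unadjusted p under 0.05 (6.72% of all genes in that direction). Vcan, which also belongs to a monocyte list (at most 18.1 CPM summed), was called, as were 0.11% of all genes with a negative interaction. Of the 12 oligodendrocyte and 10 neuronal genes (neuronal sum at most 13.9 CPM), edgeR, DESeq2 and limma-voom each called 0. In edgeR 4 and 3 of them had an unadjusted p under 0.05. Of all genes 7.65% had such a p with a positive and 6.72% with a negative interaction. The part of these other cell types in the results was not tested, and in bulk samples fewer cells of a type and less RNA per cell cannot be told apart.

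The change from P10 to P42 differed between CC and Cx microglia in 46 of 20917 genes (0.22%). The interaction was positive for 23 genes (0.11%) and negative for 23 (0.11%). The genes with a negative interaction included the cholesterol exporters Abca1 and Abcg1, the chemokines Ccl6 and Ccl9 and the stress-induced transcription factor Atf3, all higher in every CC library than in every Cx library at P10. The genes with a positive interaction included the transcription factor Klf2 and the membrane protein gene Emp3, which fell in the Cx by P42, and Gpr183, H2-DMa and Alox5, which rose in the CC from a level below that of the Cx. At P42 against P10 alone, 1042 genes were called in the CC (4.98%) and 807 in the Cx (3.86%). Among the 38 called genes in which no group was at or below 3 reads in every library, the size of the interaction ranged from 1.01 to 4.01 with a median of 1.34 in the positive direction, and from 1.02 to 6.71 with a median of 1.65 in the negative direction. The median interaction over all genes tested was 0.02. Leaving out 1 library at a time gave 31 to 63 called genes, and the number with a negative interaction fell to 14 without Cx P10 replicate 2, 3 or 4. A fit of the 4 groups alone called 21 genes and DESeq2 296, and an adjusted p of 0.05 in edgeR without a fold limit gave 301 genes (1.44%), 161 with a positive (0.77%) and 140 with a negative interaction (0.669%).

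**Figure D1:**
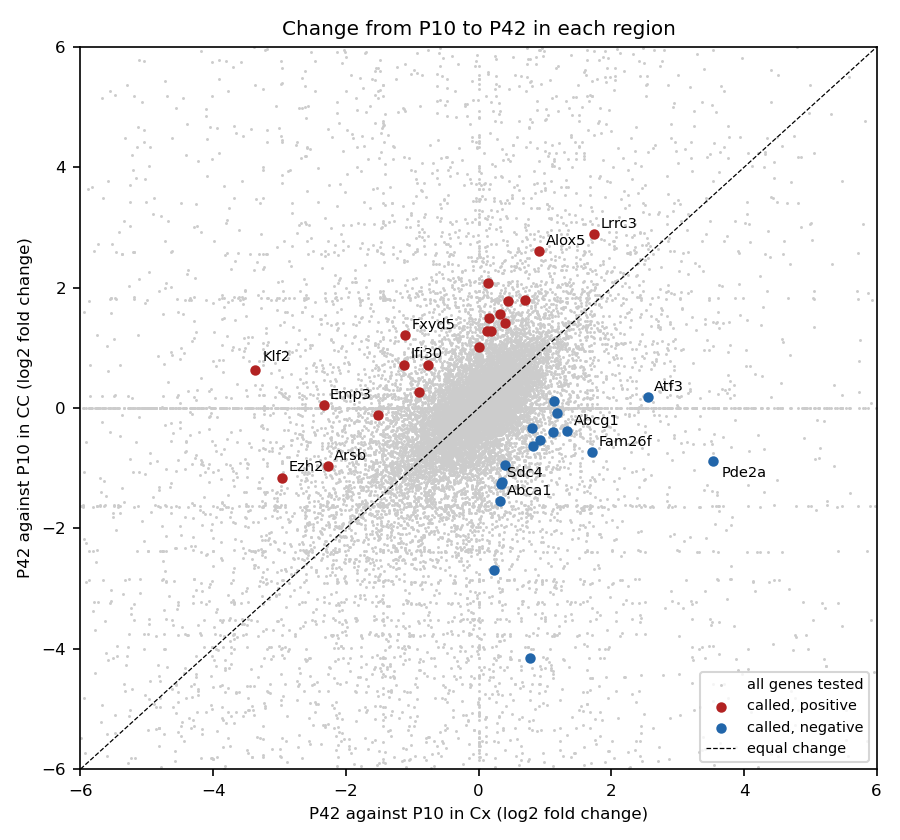
The log2 fold change from P10 to P42 is plotted for the Cx (x axis) and the CC (y axis), with 1 point per gene, called genes in colour and the dashed line marking equal change. Points off the line to the upper left have a positive interaction (Klf2, Emp3) and those to the lower right a negative one (Abcg1, Pde2a), and 36 of the 46 called genes lie within the axes, which end at 6 and -6.

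The called genes fell into a few patterns. The region gap itself, CC against Cx at 1 age, was called at P10 only for 20 of the 46 genes and at P42 only for 10, and at neither age for 16. Over all genes the gap was called for 121 genes at P10 (0.578%) and 51 at P42 (0.244%). The age change was called in the CC only for 24 genes, in the Cx only for 12, in both regions with the same sign for 3 and in neither for 6. Fxyd5 was the 1 gene called in both regions with opposite signs. In 17 of the 23 genes with a negative interaction every CC library was above every Cx library at P10, an order found in 4.77% of all genes, and in 19 of the 23 with a positive interaction every Cx library was above every CC library at P10, found in 7.22% of all genes. The gap at P10 is part of the interaction, so these counts describe the called genes and are no separate evidence.

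Genes of cholesterol handling went in both directions. Sequences upstream of Abca1 and Hmgcs1 are shown because their genes stand for export and synthesis, which had interactions of opposite sign. They are the 250 bases before the RefSeq start of each gene on GRCm38.p6, at chr4:53159896-53160145 on the minus strand for Abca1 and chr13:119690101-119690350 on the plus strand for Hmgcs1, written 5′ to 3′ along the gene. Capitals mark in Abca1 the match to the half-sites GGTNA and GGTCA with 5 bases between these letters, the arrangement to which liver X receptors bind, and in Hmgcs1 the match to CACCCCAC, a core of the sterol regulatory element.
Abca1: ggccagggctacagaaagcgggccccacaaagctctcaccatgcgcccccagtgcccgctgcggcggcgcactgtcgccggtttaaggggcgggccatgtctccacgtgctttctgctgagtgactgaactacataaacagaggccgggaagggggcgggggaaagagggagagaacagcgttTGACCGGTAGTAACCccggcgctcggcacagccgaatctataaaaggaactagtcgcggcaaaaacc
Hmgcs1: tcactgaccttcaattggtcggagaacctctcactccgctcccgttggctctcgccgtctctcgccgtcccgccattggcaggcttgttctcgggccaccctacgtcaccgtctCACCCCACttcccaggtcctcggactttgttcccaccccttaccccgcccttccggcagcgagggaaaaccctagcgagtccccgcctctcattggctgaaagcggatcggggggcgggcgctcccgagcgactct
Both strands were searched. The first match lies 67 to 53 bases before the start of Abca1 and is on the strand opposite to the one printed, and this motif was found in 58 of 32851 promoters of the same length (0.177%). The second lies 136 to 129 bases before the start of Hmgcs1, and its motif was found in 846 promoters (2.58%). Of the 46 called genes 36 were matched by symbol to the promoter table, and the first motif was found in 1 of them (Abca1) and the second in 2 (Hmgcs1 and Vcan). Abcg1 was not among the 36, so its promoter was not searched. A match is a description of the letters and not of binding.

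Abcg1 (chromosome 17, 31057698 to 31115777), which encodes the transporter that passes cholesterol to lipoprotein particles, was at 243, 254, 249 and 216 CPM in the CC at P10 and at 193, 187, 169 and 191 at P42. In the Cx it was at 84.7, 79.0, 84.3 and 77.8 CPM at P10 and at 185, 201, 226 and 212 at P42. The regions did not overlap at P10, where the CC was 2.95-fold higher, and they overlapped at P42. The gene rose 2.53-fold in the Cx (log2 1.34, adjusted p = 4.8e-10), its change in the CC was -0.38, and the interaction was -1.72 (SE 0.16, adjusted p = 6.4e-08). Abca1 (chromosome 4, 53030787 to 53159895), the exporter of cholesterol to lipid-poor apolipoproteins, had 568, 637, 411 and 352 CPM in the CC at P10 and 182, 137, 198 and 158 at P42. Its Cx levels were 303, 224, 182 and 205 CPM at P10 and 261, 262, 315 and 309 at P42. The order of the regions thus turned, with every CC library above the Cx at P10 and every CC library below it at P42. The gap was called at P10 only (log2 -0.76 at P42, adjusted p = 0.024). Abca1 fell in the CC (log2 -1.54, adjusted p = 1.9e-07), changed by 0.33 in the Cx (adjusted p = 0.26), and had an interaction of -1.87 (SE 0.25, adjusted p = 5.7e-05). The exporters therefore had a similar interaction by different routes, Abcg1 through a rise in the Cx and Abca1 through a fall in the CC.

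Hmgcs1 (chromosome 13, 119690462 to 119708086), the synthase at the start of the cholesterol pathway, had 28.5, 38.4, 37.1 and 22.3 CPM in the CC at P10 and 42.6, 57.7, 61.3 and 46.7 at P42. In the Cx it had 85.1, 75.4, 61.3 and 60.8 CPM at P10 and 41.4, 45.2, 36.8 and 43.7 at P42. All Cx libraries were above all CC libraries at P10, and the regions overlapped at P42. The interaction was 1.48 (SE 0.26, adjusted p = 0.0018), built from changes of 0.72 in the CC and -0.76 in the Cx that each stayed under the fold limit, and the call was lost in the fit of the 4 groups alone (adjusted p = 0.014). Further genes of sterol synthesis and its control had positive interactions that were not called, namely Cyp51 at 1.51 (adjusted p = 0.054), Insig1 at 1.47 (adjusted p = 0.030) and Srebf2 at 0.92 (adjusted p = 0.064). Of these, Cyp51 and Srebf2 were chosen after their values were seen. Other lipid synthesis genes of the list had smaller or negative values, such as Sqle at 0.50 (adjusted p = 0.91), Scd2 at -0.74 (adjusted p = 0.047) and Fasn at -0.85 (adjusted p = 0.44). DESeq2 called Cyp51 and Insig1, and also Scd1, which had -3.42 in edgeR (adjusted p = 0.74). Lipa, the lysosomal lipase that frees cholesterol from its esters, had an interaction of -0.70 (adjusted p = 0.0039), under the fold limit. Over the list of 36 lipid-handling genes, 1 was called with a positive and 2 with a negative interaction, 8 and 10 had an unadjusted p under 0.05 in those directions, and the median was 0.24 against 0.02 for all genes. Across all genes 0.22% were called, and 7.65% had an unadjusted p under 0.05 with a positive and 6.72% with a negative interaction.

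Lpl, the lipoprotein lipase of white matter and disease-associated microglia, did not belong to the called genes. It fell in the CC from 487, 561, 678 and 544 CPM at P10 to 123, 155, 113 and 217 at P42, and in the Cx from 159, 191, 168 and 136 CPM to 27.4, 27.5, 20.2 and 36.3. The CC was above the Cx in every library at both ages. Its interaction was 0.65 (SE 0.25, adjusted p = 0.21), between 0.43 and 0.79 over all alternatives. Apoe, chosen after its values were seen, fell in both regions, from 16768 ± 1445 CPM (SD, n = 4) to 1050 ± 189 in the CC and from 1880 ± 49.9 to 258 ± 91.3 in the Cx, with an interaction of -1.13 (adjusted p = 0.042) that DESeq2 called.

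**Figure D2:**
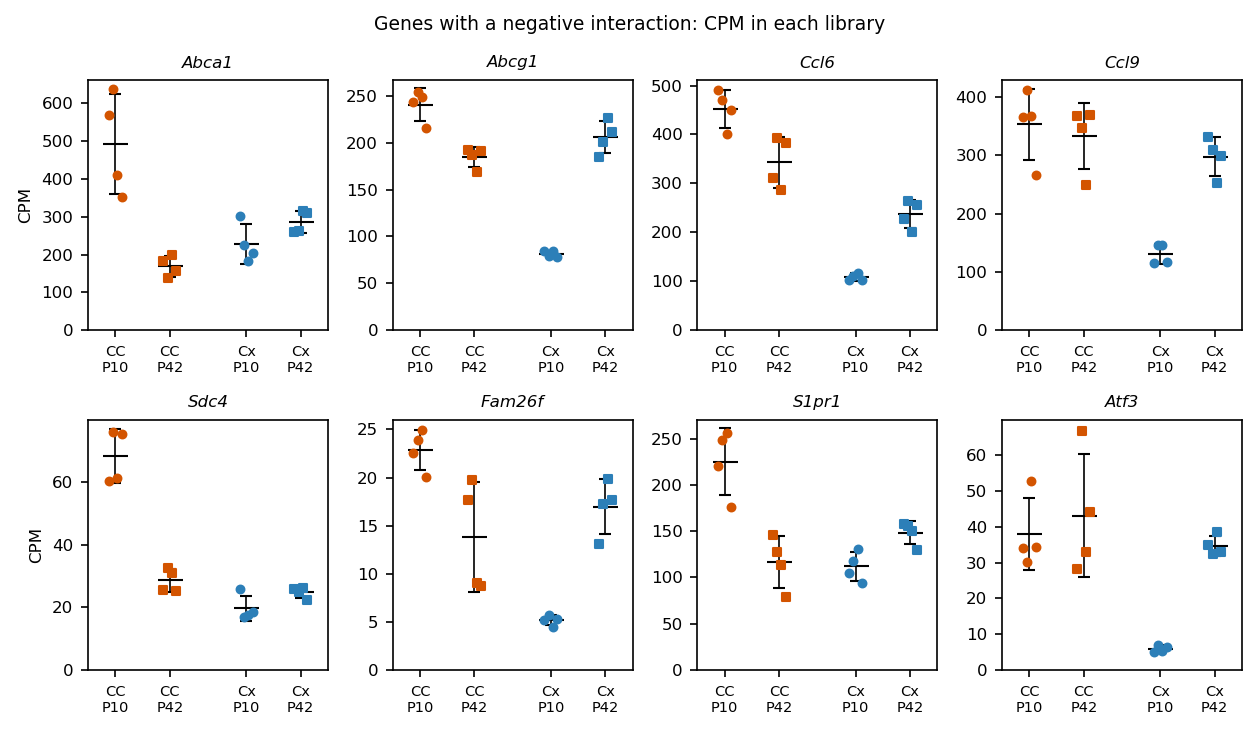
CPM in each library is shown for 8 genes with a negative interaction, with CC in orange, Cx in blue, P10 as circles and P42 as squares, and bars for the mean and SD (n = 4). In all 8 genes the CC P10 points lie above the Cx P10 points, and Cx P42 lies above Cx P10 without overlap for Abcg1, Ccl6, Ccl9, Fam26f and Atf3.

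Ccl6 and Ccl9 are neighbouring genes of C-C motif chemokines, which attract myeloid cells through the receptor Ccr1. Ccl6 (chromosome 11, 83587882 to 83593087) was at 492, 470, 401 and 449 CPM in the CC at P10 and 312, 392, 286 and 382 at P42, and in the Cx at 103, 112, 118 and 103 at P10 and 227, 264, 201 and 257 at P42. The CC libraries lay above the Cx libraries at both ages, but the gap narrowed from 4.17-fold to 1.45-fold. The interaction was -1.53 (SE 0.14, adjusted p = 6.4e-08). Ccl9 (chromosome 11, 83572919 to 83578636) held 366, 412, 366 and 267 CPM in the CC at P10 and 367, 347, 249 and 369 at P42, with no separation of the ages. It rose in the Cx from 115, 147, 146 and 117 CPM to 332, 309, 252 and 299, and its interaction was -1.27 (SE 0.18, adjusted p = 0.00012). Of 39 chemokine, cytokine and receptor genes tested, these 2 were called (5.13%, against 0.22% of all genes). At an unadjusted p under 0.05, 9 had a positive and 8 a negative interaction, and the median was 0. Of all genes 7.65% and 6.72% did so. Ccl4, a further myeloid chemokine, had -2.16 (adjusted p = 0.038), Il7r 1.92 (adjusted p = 0.038) and Il6 4.01 (adjusted p = 0.085), none of them called by edgeR, though DESeq2 called all 3 and limma-voom Il6. Il6 had 0 to 0.682 CPM in CC P10 (at most 23 reads in a library), 3.08 to 5.56 in Cx P10 and 7.96 to 14.1 CPM in both groups at P42.

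Among the other genes with a negative interaction, Atf3, a transcription factor induced by stress and by cell isolation, had 34.1, 30.3, 52.7 and 34.4 CPM in CC P10 and only 4.94, 7.12, 5.23 and 6.43 in Cx P10. At P42 it was at 28.3, 66.8, 32.9 and 44.1 CPM in the CC and 34.8, 32.5, 38.6 and 32.9 in the Cx, where the regions overlapped. It rose 5.85-fold in the Cx, and the interaction was -2.36 (SE 0.36, adjusted p = 0.00037), lost with limma-voom (adjusted p = 0.011). Pde2a, a phosphodiesterase that breaks down cyclic nucleotides, was at 22.5, 46.9, 44.5 and 38 CPM in CC P10 and at 0.836, 1.68, 1.79 and 3.70 in Cx P10, a gap of 18.9-fold that closed by P42 (13.0 to 30.5 and 13.0 to 34.1 CPM). Its interaction was -4.41 (SE 0.80, adjusted p = 0.0028). Fam26f, an interferon-inducible membrane protein of immune cells, had 20.1 to 25.0 CPM in CC P10 and 4.49 to 5.73 in Cx P10, and rose 3.28-fold in the Cx (interaction -2.44, SE 0.32, adjusted p = 3.9e-05). Its mean in the CC was 22.9 CPM at P10 and 13.8 at P42, against 17.0 in Cx P42. All 3 genes were higher in every CC library than in every Cx library at P10, and the regions overlapped at P42.

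Sdc4, the heparan sulfate proteoglycan syndecan-4, fell in the CC and had no called change in the Cx. It had 60.3, 75.8, 61.3 and 75.4 CPM in CC P10, 25.7, 32.5, 30.9 and 25.4 in CC P42, 25.7, 17.0, 17.5 and 18.6 in Cx P10, and 25.9, 24.9, 26.2 and 22.4 in Cx P42. CC P10 stood above all other libraries, and the interaction was -1.59 (SE 0.22, adjusted p = 6.9e-05). S1pr1, the sphingosine-1-phosphate receptor, and Ninj1, which ruptures the membrane of dying cells, were called genes outside the 12 ranked and were chosen after their values were seen. S1pr1 had 176 to 256 CPM in CC P10, 79.1 to 146 in CC P42, 94.4 to 131 in Cx P10 and 130 to 158 in Cx P42, with an interaction of -1.36 (adjusted p = 0.0006). Ninj1 had 158 to 187 CPM in CC P10 and 81.7 to 94.1 in Cx P10, with overlap at P42 and an interaction of -1.14 (adjusted p = 0.00066). Aldoa, the glycolytic aldolase, also chosen after its values were seen, rose 2.2-fold in the Cx to the CC level and had an interaction of -1.02 (adjusted p = 0.00019), which dropped under the fold limit when CC P10 replicate 3, CC P42 replicate 1 or Cx P42 replicate 2 was left out (lowest size 0.93).

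Lag3, an inhibitory receptor expressed by homeostatic microglia, turned its regional order. It had 45.4 to 53.0 CPM in CC P10 and 23.1 to 40.1 in CC P42, against 24.4 to 39.0 in Cx P10 and 52.8 to 60.4 in Cx P42, and the regions did not overlap at either age. The gap was log2 0.76 at P10 (adjusted p = 0.0081) and -0.70 at P42 (adjusted p = 0.034), and neither was called. The interaction was -1.46 (SE 0.24, adjusted p = 0.0011, and 0.012 in the fit of the 4 groups alone). Bnip3, which marks mitochondria for removal, had 20.4 to 25.1 CPM in CC P10 and 5.07 to 14.7 in the other 3 groups (interaction -1.57, adjusted p = 0.0069), and 22.3% of its exon bases overlap a gene on the opposite strand. Calcoco1, an autophagy receptor, had 36.9 to 51.5 CPM in CC P10 and 24.7 to 27.6 in Cx P10 (interaction -1.45, adjusted p = 0.0083). Hpse, heparanase, which cuts heparan sulfate, had 29.6, 21.0, 61.1 and 10.7 CPM in CC P10 and 0 to 0.706 in CC P42, 1.67 to 3.89 in Cx P10 and 0 to 7.05 in Cx P42 (interaction -6.71, SE 1.38, adjusted p = 0.0094). The last 3 calls were not stable to single libraries. Bnip3 was lost when any of 7 of the 16 libraries was left out, Calcoco1 with any of 13 and Hpse with any of 12, and over all alternatives the interaction stayed negative, from -1.79 to -1.36 for Bnip3, -1.60 to -1.28 for Calcoco1 and -8.34 to -4.41 for Hpse.

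A further set of genes with a negative interaction was at or near 0 in CC P42. Cdc25b, a phosphatase that starts mitosis, had 8.72, 21.1, 19.7 and 7.53 CPM in CC P10, 0 in 3 CC P42 libraries and 0.0336 in the fourth, 8.44, 12.2, 11.4 and 14.5 in Cx P10 and 0.0351, 3.38, 3.44 and 1.00 in Cx P42. It fell in both regions, and its interaction (-7.59, SE 1.27, adjusted p = 0.0012) rests on a group with at most 1 read per library, so no fold is read from it. This call was lost in the fit of the 4 groups alone (adjusted p = 0.031). Vcan, Cdc14b, Cd5l and Fabp7 had no read in any CC P42 library, and their highest levels in any of the 16 CC and Cx libraries were 1.56, 3.85, 6.15 and 9.09 CPM. Icos, a costimulatory receptor, had 2.83 to 11.0 CPM in CC P10 and at most 0.134 in CC P42, and Scrn2 had 7.95 to 10.3 and at most 2.19. These 6 genes lie outside the 12 ranked and were chosen after their values were seen. Leaving out a single library ended the call of Scrn2 for 13 of the 16 libraries, of Fabp7 for 12, of Vcan and Cd5l for 9 each, of Cdc14b for 8 and of Icos for 2, and all 6 calls were lost with the replicate number as a block and in the fit of the 4 groups alone. CC P42 was also the group with the fewest genes detected and the lowest median number of reads (29425142 against 32382766 in CC P10, 42755452 in Cx P10 and 33284867 in Cx P42), and the part of depth in these calls was not tested. In all, 8 of the 46 called genes had a group at 3 reads or fewer in every library and 10 stayed below a mean of 10 CPM in every group.

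Klf2 (chromosome 8, 72319033 to 72321656), a transcription factor that restrains inflammatory activation of macrophages, had the largest positive interaction among called genes that reached 10 CPM. It was at 11.7, 15.7, 20.0 and 16.1 CPM in CC P10, 21.4, 17.3, 20.1 and 40.1 in CC P42, 18.2, 23.4, 22.6 and 21.3 in Cx P10, and 1.93, 1.45, 2.30 and 2.55 in Cx P42. The Cx P42 libraries stood below all others, and the regions overlapped at P10. Klf2 fell in the Cx (log2 -3.37, adjusted p = 2.2e-10), its change in the CC was 0.64 (adjusted p = 0.073), and the interaction was 4.01 (SE 0.37, adjusted p = 5.8e-08). It stayed between 3.68 and 4.15 over all alternatives.

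**Figure D3:**
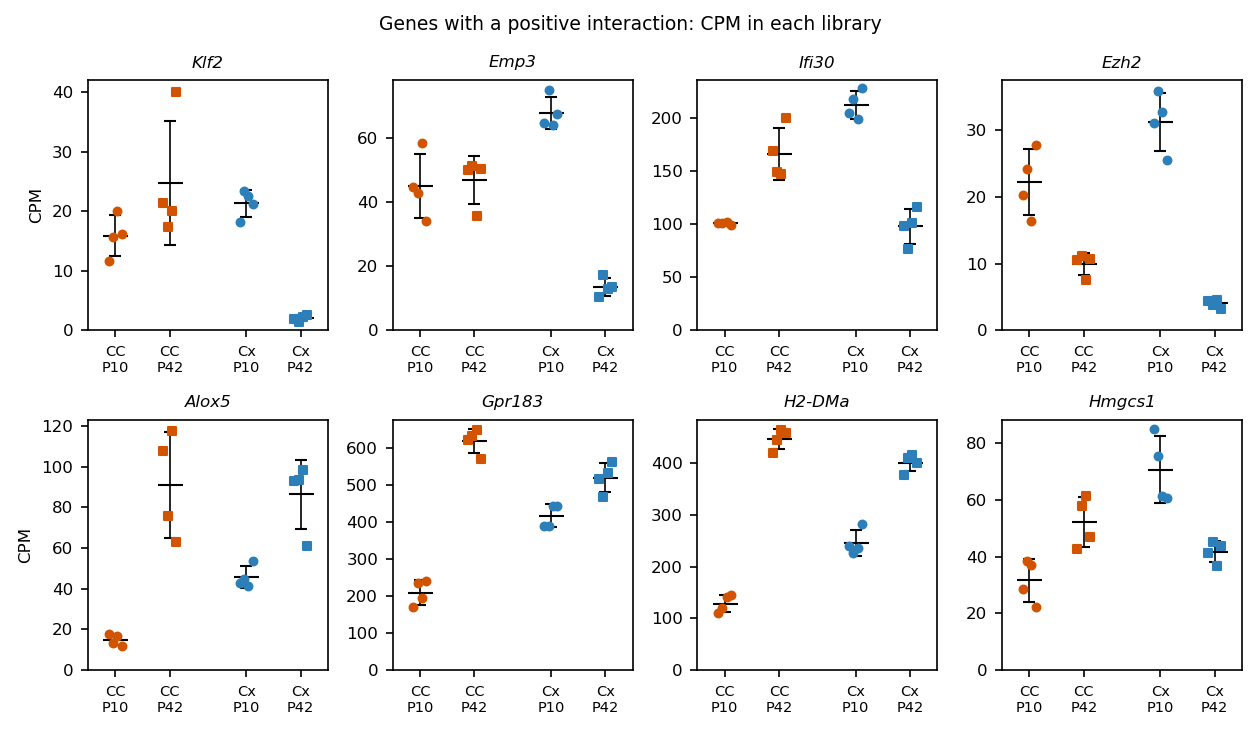
CPM in each library is shown for 8 genes with a positive interaction, with CC in orange, Cx in blue, P10 as circles and P42 as squares, and bars for the mean and SD (n = 4). Klf2, Emp3 and Ezh2 are lowest in Cx P42 (at most 2.55, 17.3 and 4.61 CPM), whereas Alox5, Gpr183, H2-DMa and Hmgcs1 have their lowest mean in CC P10 (14.9, 209, 128 and 31.6 CPM).

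Emp3, a small membrane protein of the epithelial membrane protein family, was likewise lowest in Cx P42, at 44.8, 42.9, 58.3 and 34.2 CPM in CC P10, 49.9, 51.3, 35.5 and 50.4 in CC P42, 64.7, 74.8, 64.1 and 67.3 in Cx P10 and 10.3, 17.3, 12.7 and 13.3 in Cx P42. The Cx was above the CC at P10 and below it at P42 in every library, and the interaction was 2.39 (SE 0.21, adjusted p = 4e-08). Fxyd5, a modulator of the sodium pump, rose in the CC from 5.98 to 13.8 CPM at P10 to 11.1 to 29.0 at P42 (log2 1.21, adjusted p = 0.0018) and fell in the Cx from 10.4 to 12.7 CPM to 2.83 to 7.4 (log2 -1.10, adjusted p = 0.005). Its interaction was 2.31 (SE 0.38, adjusted p = 0.0011), and the call was lost with limma-voom and in the fit of the 4 groups alone (adjusted p up to 0.059). Naaa, a lysosomal amidase, had 78.7 to 112 CPM in CC P10, 48.0 to 130 in CC P42, 121 to 135 in Cx P10 and 42.7 to 47.7 in Cx P42 (interaction 1.40, SE 0.23, adjusted p = 0.0011, and 0.054 in the fit of the 4 groups alone). Emp3 and Naaa thus fell in the Cx and had no called change in the CC.

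Ifi30, the thiol reductase GILT that opens disulfide bonds of antigens in lysosomes, had nearly equal values in CC P10 (101, 102, 102 and 98.9 CPM) and 169, 149, 147 and 200 CPM in CC P42. The Cx went the other way, from 205, 218, 199 and 228 CPM to 98.2, 76.7, 101 and 116. The regions did not overlap at either age and changed places, with an interaction of 1.84 (SE 0.16, adjusted p = 4e-08). Arsb, the lysosomal arylsulfatase B, fell in the Cx from 1084, 1024, 1083 and 1114 CPM to 245, 197, 252 and 198, and went in the CC from 386, 481, 414 and 495 CPM to 277, 187, 223 and 224. The regions met at P42 (interaction 1.31, SE 0.16, adjusted p = 2.2e-05). The exons of Arsb overlap an opposite-strand gene over 48.8% of their bases, and the library kit does not mark strand. Ezh2, the histone methyltransferase of the Polycomb complex PRC2, fell in both regions, from 16.4 to 27.9 CPM to 7.54 to 11.1 in the CC and from 25.6 to 35.9 CPM to 3.26 to 4.61 in the Cx. The fall was smaller in the CC (interaction 1.8, SE 0.29, adjusted p = 0.00062), and at P42 every CC library was above every Cx library. The call was lost with limma-voom and in the fit of the 4 groups alone (adjusted p up to 0.017).

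A larger set rose in the CC from a P10 level below that of the Cx. Gpr183, the oxysterol receptor EBI2 that guides immune cell migration, was outside the 12 ranked and was chosen after its values were seen. It had 171, 234, 193 and 239 CPM in CC P10 and 623, 633, 649 and 572 in CC P42, against 390, 390, 444 and 445 in Cx P10 and 517, 468, 532 and 562 in Cx P42. The CC was below the Cx in every library at P10 and above it at P42, with an interaction of 1.25 (SE 0.11, adjusted p = 4e-08). The gap between the regions was not called at either age. H2-DMa, a chaperone that loads peptides onto MHC class II molecules, rose in the CC from 110, 119, 140 and 144 CPM to 420, 444, 464 and 458, and went in the Cx from 240, 226, 236 and 282 to 378, 410, 415 and 399. The order again turned in every library (interaction 1.09, SE 0.15, adjusted p = 5.7e-05). The gap itself was log2 -0.94 at P10 (adjusted p = 7.7e-07) and 0.16 at P42 (adjusted p = 0.48), and neither was called. Of 23 antigen presentation genes H2-DMa was the only one called (4.35%, against 0.22% of all genes). At an unadjusted p under 0.05, 2 had a positive and 0 a negative interaction, and the median was -0.04. Of all genes 7.65% and 6.72% did so. H2-Aa, a chain of the class II molecule itself, had at most 0.0298 CPM in CC P10 and 0, 30.1, 8.06 and 7.79 in CC P42 (adjusted p = 0.20), and Psmb8 (interaction -0.26) and Tap2 (0.37) of the class I pathway were not called.

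Alox5, the 5-lipoxygenase that starts leukotriene synthesis, rose 6.09-fold in the CC, from 17.6, 13.5, 16.8 and 11.8 CPM to 108, 75.6, 118 and 62.9. In the Cx it was at 42.8, 44.9, 41.5 and 53.7 CPM at P10 and at 92.9, 93.4, 98.4 and 60.9 at P42, so the regions were apart at P10 and overlapped at P42 (interaction 1.69, SE 0.28, adjusted p = 0.0011, and 0.014 in the fit of the 4 groups alone). Alox5ap, the protein that presents arachidonic acid to the 5-lipoxygenase, was chosen after its values were seen. It had 197 to 233 CPM in CC P10, 393 to 498 in CC P42, 368 to 416 in Cx P10 and 358 to 416 in Cx P42, with an interaction of 1.02 (SE 0.12, adjusted p = 6.2e-06) that dropped under the fold limit with any of 7 of the 16 libraries left out (lowest 0.94). Endod1, a nuclease-like gene, rose 4.21-fold in the CC, from 14.0, 59.7, 54.3 and 27.6 CPM to 171, 161, 184 and 139, against 105 to 138 CPM in Cx P10 and 131 to 153 in Cx P42 (interaction 1.94, SE 0.35, adjusted p = 0.0029, and 0.059 in the fit of the 4 groups alone). Capg, an actin-capping protein of activated microglia, rose 2.82-fold in the CC, from 20.5 to 38.4 CPM to 65.7 to 107, and stood at 36.1 to 51.9 CPM in the Cx at both ages (interaction 1.34, SE 0.23, adjusted p = 0.0014, and 0.034 in the fit of the 4 groups alone). Capg thus overlapped between the regions at P10 and was higher in every CC library at P42.

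Stk17b, a kinase linked to apoptosis, rose 3.45-fold in the CC and had an interaction of 1.34 (SE 0.27, adjusted p = 0.0067), but this call was lost when any of 12 of the 16 libraries was left out (interaction 1.24 to 1.48 over all alternatives). Lrrc3, Tes, Tsc22d3 and Lat2 were called outside the 12 ranked, with interactions of 1.16, 1.16, 1.01 and 1.08. They were chosen after their values were seen. Each rose in the CC and was below the Cx in every library at P10. The calls were lost with any of 12 libraries left out for Lrrc3, 11 for Tes, 12 for Tsc22d3 and 1 for Lat2 (Cx P42 replicate 3, interaction 0.98 without it), of which 36.3% of the exon bases overlap an opposite-strand gene. Mageh1, Ipcef1 and Slain1, called as well and chosen after their values were seen, had at most 1 read per library in CC P10 and means of 3.37, 7.10 and 2.22 CPM in CC P42. Slain1 lost its call with any of 14 of the 16 libraries left out and Ipcef1 with any of 10, both also with limma-voom and the replicate block, and all 3 were lost in the fit of the 4 groups alone.

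Of the 46 calls, 16 held in all 24 alternatives, namely Klf2, Emp3, Ifi30, Arsb, Gpr84, H2-DMa and Gpr183 with a positive interaction and Pde2a, Fam26f, Abca1, Abcg1, Sdc4, Ccl6, Ccl9, S1pr1 and Ninj1 with a negative one. A further 11 held whichever library was left out but were lost in another alternative. No gene named here as called changed the sign of its interaction in any alternative.

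Of 29 homeostatic genes tested, 17 had an interaction above 0 and 12 below, with a median of 0.16 against 0.02 for all genes. Gpr84 was called with a positive interaction and Lag3 with a negative one (0.22% of all genes were called), and 14 and 4 had an unadjusted p under 0.05 in those directions (7.65% and 6.72% of all genes). Gpr84, a receptor for medium-chain fatty acids, had 256, 244, 244 and 340 CPM in CC P10, 275, 332, 389 and 302 in CC P42, 413, 413, 417 and 438 in Cx P10 and 222, 198, 279 and 204 in Cx P42 (interaction 1.16, SE 0.17, adjusted p = 0.00019). It was higher in the Cx at P10 in every library, and the regions overlapped at P42. Olfml3 had 3249 ± 351 CPM (SD, n = 4) in CC P10, 6374 ± 359 in CC P42, 4844 ± 187 in Cx P10 and 5911 ± 301 in Cx P42, with an interaction of 0.69 (SE 0.09, adjusted p = 2.3e-05). Tmem119 went from 3157 ± 410 CPM (SD, n = 4) to 6340 ± 566 in the CC and from 5041 ± 179 to 6276 ± 325 in the Cx, with an interaction of 0.69 (SE 0.14, adjusted p = 0.0067). Both were lower in every CC library than in every Cx library at P10 and overlapped at P42, and both stayed under the fold limit. Sparc had 0.47 (adjusted p = 0.013). Of members chosen after their values were seen, Crybb1 had -0.61 (adjusted p = 0.021), Trem2 -0.35 (adjusted p = 0.16) and Fcrls -0.23 (adjusted p = 0.32), against 0.39 for P2ry12 (adjusted p = 0.12) and 0.46 for Siglech (adjusted p = 0.079).

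**Figure D4:**
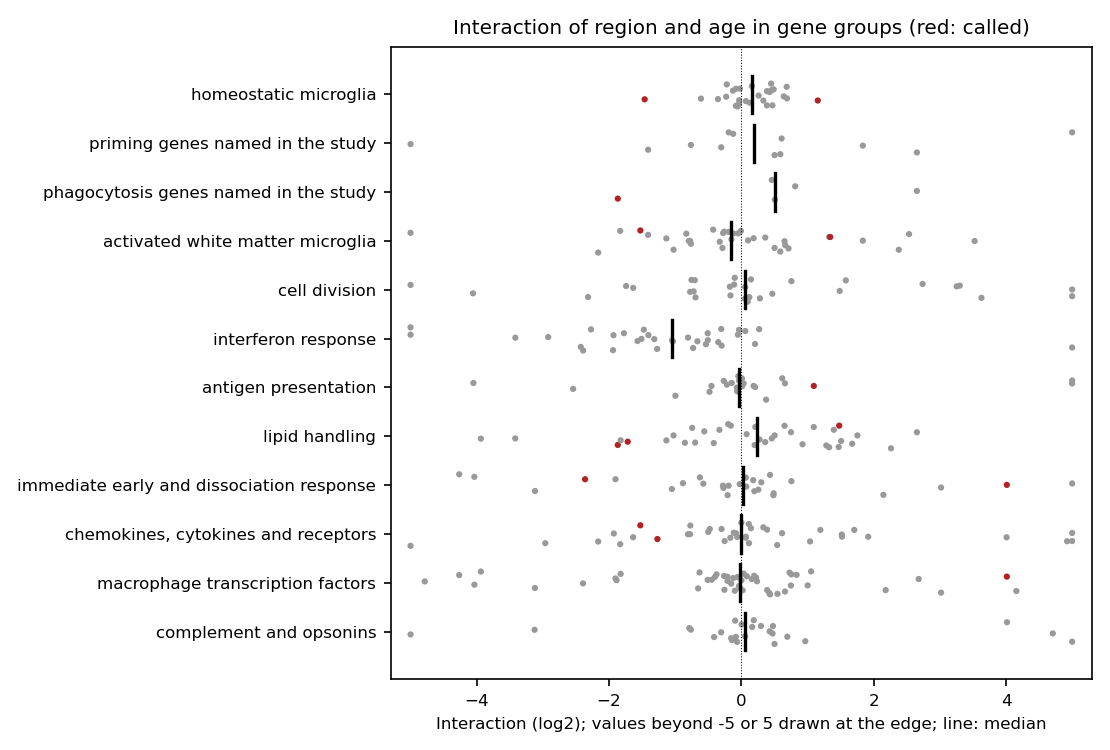
The interaction (x axis, log2) is shown for each tested member of 12 gene groups, with called genes in red and a line at the group's median. The medians lie near 0 for most groups, between -0.15 and 0.24 for 10 of them, at 0.51 for the 5 phagocytosis genes and at -1.05 for the interferon response, in which edgeR called no gene.

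Genes of primed and activated white matter microglia were set beside all genes, of which edgeR called 0.22%. Of all genes 7.65% had an unadjusted p under 0.05 with a positive and 6.72% with a negative interaction. Of 12 priming genes named in the study, edgeR called 0 (2 with an unadjusted p under 0.05 in each direction, median 0.19), limma-voom 0 and DESeq2 1 (Clec7a). Clec7a, the beta-glucan receptor Dectin-1, had 63.7, 53.5, 101 and 52.7 CPM in CC P10, 51.5, 90.9, 59.8 and 145 in CC P42, 6.57 to 7.91 in Cx P10 and 16.1 to 33.9 in Cx P42. It was higher in the CC at both ages, and its interaction of -1.41 was not called by edgeR (adjusted p = 0.035), though it was called without CC P42 replicate 4 (-1.77, adjusted p = 0.0017) and by DESeq2 (adjusted p = 0.0041). Spp1, osteopontin, reached 500 CPM in CC P10 replicate 3 against 53.9 to 141 in the others and 128 in CC P42 replicate 2 against 12.4 to 15.6, with an interaction of 1.84 (SE 0.89, adjusted p = 0.34). Itgax had -0.76 (adjusted p = 0.64). Of the 5 phagocytosis genes named in the study, Abca1 was called, and Scarb1 (0.46), Grk6 (0.51) and Gsn (0.81) were not. The study picked the phagocytosis genes as regulated in the same samples, so that list is not independent evidence of a direction, and it describes the priming genes as known ones. Of 35 genes of activated white matter microglia 5.71% were called, Capg with a positive and Ccl6 with a negative interaction. In those directions 6 and 11 had an unadjusted p under 0.05, and the median was -0.15. For this list limma-voom called 2 genes (Capg and Ccl6) and DESeq2 called 7 (Apoe, Capg, Ccl4, Ccl6, Clec7a, Lilrb4a and Plin2). Plin2, which coats lipid droplets, fell in the CC from 183 to 291 CPM to 56.6 to 96.4 (interaction -1.03, adjusted p = 0.020), and Lyz2, lysozyme, fell in both regions (interaction -0.79, adjusted p = 0.024). Neither interaction was called by edgeR, and DESeq2 called Plin2.

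The interferon response list had the lowest median, -1.05 over 33 genes tested. Both edgeR and limma-voom called 0 of them. DESeq2, which called 296 of all 20917 genes, called 5 (Rtp4, Xaf1, Rsad2, Ifit3 and Oas1a). In edgeR 1 had an unadjusted p under 0.05 with a positive and 10 with a negative interaction. Of all genes 7.65% and 6.72% did. Rtp4, a receptor chaperone induced by interferon, had 25.8, 18.0, 47.4 and 21.9 CPM in CC P10, 38.7, 49.0, 37.5 and 21.6 in CC P42, 28.0, 24.9, 19.9 and 23.4 in Cx P10 and 130, 108, 62.8 and 127 in Cx P42. It was higher in the Cx at P42 in every library, and its interaction of -1.78 (SE 0.37) missed the limit (adjusted p = 0.012, from 0.00028 to 0.087 over the alternatives, of which 7 called it). Xaf1, a partner of the apoptosis inhibitor Xiap, had 6.75 to 9.32 CPM in CC P10, 10.9 to 13.8 in CC P42, 5.56 to 7.71 in Cx P10 and 16.6 to 33.2 in Cx P42 (interaction -1.51, adjusted p = 0.031). Rsad2, viperin, had 58.4 CPM in CC P10 replicate 3 and 0 to 5.69 in the others, and 21.0 in Cx P42 replicate 4 against 1.05 to 2.48 (interaction -8.37, SE 1.85, adjusted p = 0.017). The summed level of the list was 755 to 1544 CPM in Cx P42, 510 to 752 in CC P42, 535 to 846 in CC P10 and 585 to 642 in Cx P10.

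In the interaction 0 of 30 cell division genes were called by edgeR, DESeq2 or limma-voom (in edgeR 0.22% of all genes). In edgeR 6 had an unadjusted p under 0.05 with a positive and 2 with a negative value, and the median was 0.06. Of all genes 7.65% and 6.72% had such a p. The summed level of the cell division genes was lower at P42 in both regions. It went from 1506 to 2222 CPM to 147 to 213 in the CC and from 2388 to 2818 CPM to 189 to 251 in the Cx. In 12 of the 30 a group was at 3 reads or fewer in every library, and the median was 0.11 with these genes at their bound. Ube2c, a mitotic ubiquitin-conjugating enzyme, had 39.1 to 57.8 CPM in CC P10 and 54.0 to 63.9 in Cx P10. At P42 it had 0, 0.0915, 0 and 2.35 CPM in the CC and at most 0.0351 in the Cx (adjusted p = 0.028), and it was called without CC P42 replicate 1 (adjusted p = 0.006) or 3 (adjusted p = 0.0058). Rrm2 (adjusted p = 0.057) and Tpx2 (adjusted p = 0.13) were likewise near 0 at P42.

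For the next 3 lists, the shares over all genes were 0.22% called, and 7.65% and 6.72% at an unadjusted p under 0.05 with a positive and a negative interaction. The summed level of 28 immediate early and dissociation response genes was 1129 to 1222 CPM in CC P10, 1764 to 2156 in CC P42, 1060 to 1123 in Cx P10 and 1446 to 1869 in Cx P42. Of these genes 7.14% were called, Klf2 with a positive and Atf3 with a negative interaction (5 and 4 with an unadjusted p under 0.05, median 0.02). The share of the response to cell isolation in these 2 genes was not tested. Klf6 had 0.76 (adjusted p = 0.006), under the fold limit, Egr1 -1.90 (adjusted p = 0.057) and Egr2 -4.26 (adjusted p = 0.058), the last 2 called by DESeq2. Of 50 macrophage transcription factors Klf2 alone was called by edgeR (2%, with 8 and 6 at an unadjusted p under 0.05, median -0.02). Mef2a, a factor of the microglial enhancer landscape, had 141 to 188 CPM in CC P10 and 296 to 394 in the other 3 groups, with an interaction of 0.83 (adjusted p = 0.0041) under the fold limit, and Bhlhe41 had 1.00 (adjusted p = 0.020), which DESeq2 called. Of 25 complement and opsonin genes 0 were called by edgeR (7 and 4 with an unadjusted p under 0.05, median 0.06), 0 by limma-voom and 1 by DESeq2 (Cfp). Pros1, an opsonin for apoptotic cells, had an interaction of 0.69 (adjusted p = 0.0067) and Itgb2, a chain of complement receptor 3, 0.47 (adjusted p = 0.047).

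The same contrast was computed for cerebellar microglia, whose 8 libraries at P10 and P42 were fitted in the same model. Against the Cx, 54 genes were called for the Cb (0.258%), and this contrast shares its Cx libraries with that of the CC, so the values are given side by side. Klf2 had 4.01 in the CC and 3.79 in the Cb, Emp3 2.39 and 2.72, Ifi30 1.84 and 1.54, Abcg1 -1.72 and -1.95, Ccl6 -1.53 and -1.50, and Gpr84 1.16 and 1.15. The direct comparison of the CC with the Cb, which uses no Cx library, called 26 genes (0.124%). It called Hmgcs1, at 1.94 (SE 0.26, adjusted p = 0.00034), which went from 71.2 ± 17.9 CPM (SD, n = 4) at P10 to 30.6 ± 6.77 at P42 in the Cb and from 31.6 ± 7.62 to 52.1 ± 8.85 in the CC. Ezh2 was called as well, at 1.55 (SE 0.29, adjusted p = 0.0066), with 4.21 ± 1.46 CPM (SD, n = 4) in Cb P42 and 9.96 ± 1.63 in CC P42. Lag3, at 1.23 (SE 0.24, adjusted p = 0.012), missed the limit, with 71.4 ± 13.1 CPM (SD, n = 4) in Cb P10 and 21.1 ± 5.61 in Cb P42. For Klf2 the difference between the CC and the Cb was 0.22 (SE 0.35), for Abcg1 0.24 (SE 0.16) and for Ccl6 -0.02 (SE 0.14), none of them called. Il7r, the interleukin-7 receptor, was called in the direct comparison at 2.55 (SE 0.48, adjusted p = 0.0078).

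**Figure D5:**
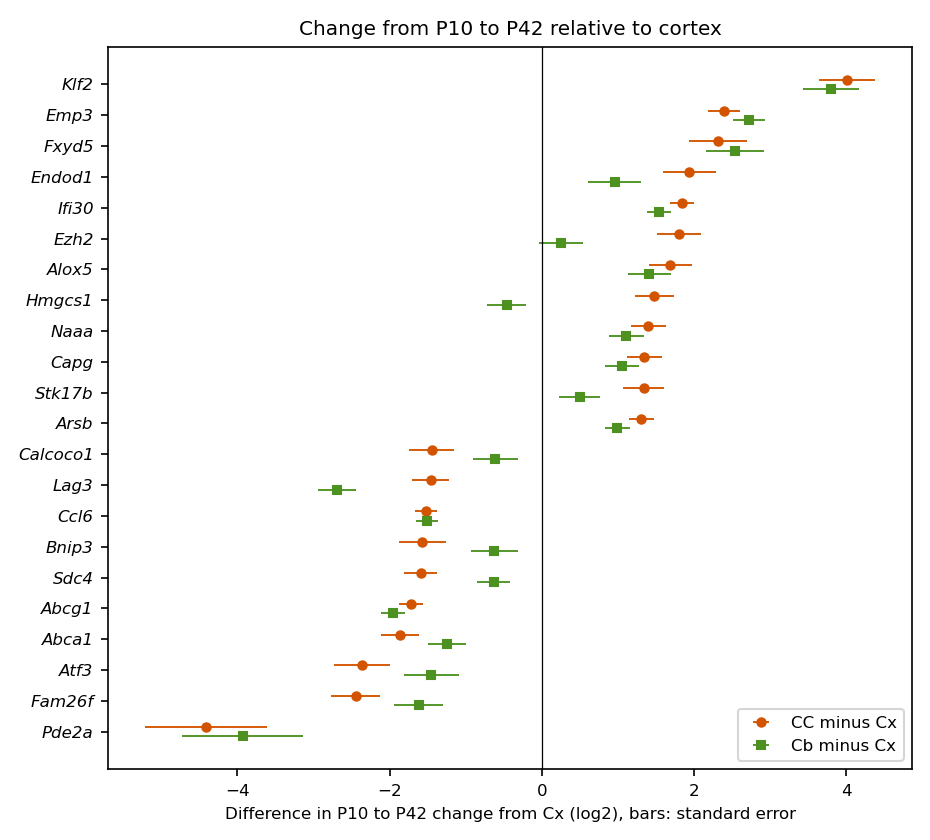
The interaction relative to the Cx (x axis, log2) is shown for the CC (orange circles) and the Cb (green squares), with bars for the standard error, for the named genes except Cdc25b and Hpse. The 2 symbols lie close together for Klf2, Emp3 and Ccl6 and far apart for Hmgcs1 (1.48 and -0.46) and Ezh2 (1.8 and 0.25), and both share the Cx libraries.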

How the data were processed

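Microglia of 33 samples were sequenced by the authors from SMARTer v4 and Nextera XT libraries, which do not mark strand. Per the submitters' processing notes and the methods, reads were processed with CASAVA 1.8.2, mapped to GRCm38 with STAR 2.5.2b and counted with featureCounts 1.6.2. The authors deposited the raw read counts per gene, without normalization, and the annotation release and strand setting are not given in the sources used here. Each library is 1 column, and 0 columns were left unused. Genes without a read (17212 of 48587) and those with the lowest summed counts (10458) were removed, as in the study's methods, which left 20917 genes, and 92 spike-in sequences were left out.

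Counts were fitted in R 4.3.3 with edgeR 4.0.16 (TMM factors, robust quasi-likelihood fit, 1 coefficient for each of 9 groups, all 33 libraries), with Benjamini-Hochberg adjustment over all genes tested. A group was at the floor when every library held 3 reads or fewer. The study's methods name limma-voom, which was run as an alternative (limma 3.58.1), as was DESeq2 1.42.0. Further alternatives were RLE factors, filterByExpr, no filter, a replicate block, sex as a covariate, a fit of the 4 groups alone, an adjusted p of 0.05 without a fold limit, and each of the 16 libraries left out. Further checks were added after seeing the data, called genes of at least 10 CPM and called genes without a group at the floor.

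Named were the 12 called genes with the largest interaction in each direction with a mean of at least 10 CPM in a group (predicted genes excepted), Klf2 and Lpl, and in each gene group the called members and up to 3 with the smallest p. Some genes that meet this rule or belong to a list are counted but not reported here by name. The comparison and the gene lists were chosen with earlier results of these data known. In counts simulated for this interaction with 20917 genes, edgeR called 14 of 100 genes changed by a log2 of 1 and 53 of 100 changed by 2, with 1 unchanged gene called. Promoter sequences are from RefSeq (GRCm38.p6), and exon overlaps from GENCODE on the same build. Imaging was not analysed here.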

Additional observations from a re-analysis of the deposited data

Results flagged for a closer look

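By its definition the interaction compares an effect between regions, and each called gene named by the rule differed between CC and Cx in edgeR's test of that difference. The interaction (log2) was 4.01 for Klf2, 2.39 for Emp3, 2.31 for Fxyd5, 1.94 for Endod1, 1.84 for Ifi30, 1.8 for Ezh2, 1.69 for Alox5, 1.48 for Hmgcs1, 1.40 for Naaa, 1.34 for Capg, 1.34 for Stk17b, 1.31 for Arsb, 1.16 for Gpr84 and 1.09 for H2-DMa. It was -7.59 for Cdc25b, -6.71 for Hpse, -4.41 for Pde2a, -2.44 for Fam26f, -2.36 for Atf3, -1.87 for Abca1, -1.72 for Abcg1, -1.59 for Sdc4, -1.57 for Bnip3, -1.53 for Ccl6, -1.46 for Lag3, -1.45 for Calcoco1 and -1.27 for Ccl9.

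In 21 of 244 pairs of a named gene and a group, 1 library stood apart from the other 3 (by Dixon's test for 4 values), where chance gives about 1 in 20. In CC P10, replicate 3 was highest for Rsad2 (58.4 CPM), Bnip3 (25.1) and H2-Aa (0.0298), and replicate 4 was highest for Gpr84 (340) and lowest for Ifi30 (98.9, next to 101). In CC P42, replicate 2 was highest for Spp1 (128), Gsn (28.3) and Rsad2 (0.412). There, replicate 3 was lowest for Emp3 (35.5) and Ezh2 (7.54) and highest for Rrm2 (3.4), and replicate 4 was highest for Ube2c (2.35) and Cdc25b (0.0336). In Cx P10 the libraries apart were those of Gpr84 (438), Sparc (11888), Plin2 (79.6) and Psmb8 (135). In Cx P42 they were those of Alox5 (60.9), Sparc (6720), Ube2c (0.0351) and Rsad2 (21.0). Outside the comparisons, reads on spike-in sequences reached 23 in CC P10 replicate 3 and at least 7 in each of the 16 libraries.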

How the results depend on the processing

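With each library left out in turn, 31 to 63 genes were called in the interaction (17 to 32 positive, 14 to 32 negative), 977 to 1076 in the CC age change, 698 to 869 in the Cx age change, 76 to 144 in the gap at P10, 25 to 89 in the gap at P42, 33 to 72 in the Cb interaction and 19 to 39 in the direct comparison of CC and Cb. The gap at P10 was lowest without Cx P10 replicate 1 (79) or 3 (76). The gap at P42 moved to 87 and 89 without CC P42 replicate 1 or 3 and to 25 without Cx P42 replicate 1, and the Cb interaction to 34, 33 and 34 without Cx P10 replicate 2, 3 or 4. DESeq2 called more genes throughout, 296 in the interaction (157 and 139), 1727 in the CC change, 306 and 310 in the gaps at P10 and P42, 166 for the Cb and 269 for CC against Cb. limma-voom called 49 in the interaction, 257 and 26 in the gaps and 42 for CC against Cb. The fit of the 4 groups alone called 21 (9 and 12), with 628 in the CC change and 55 and 6 in the gaps. An adjusted p of 0.05 without a fold limit gave 301 (161 and 140). The cause of these differences was not tested.

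The replicate number as a block called 33 genes in the interaction (19 positive, 14 negative). Labels do not say that a number is shared by an animal, though same-numbered CC and Cx libraries of an age have the same sex. Deviations of same-numbered CC and Cx libraries had correlations of -0.016 to 0.067 over 8 pairs against -0.078 to 0.059 over 24 others (10086 genes). Such overlapping ranges cannot decide whether same-numbered libraries are pairs. The main fit treats the libraries as unpaired. Of the 46 called genes, 36 had a mean of at least 10 CPM in a group and 38 had no group at 3 reads or fewer, and the part of depth in the calls was not tested.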

Other observations

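Further genes, chosen after their values were seen, had interactions that edgeR did not call with all libraries. Slc2a5, a fructose transporter typical of microglia, went from 585 to 829 CPM in CC P10 to 1353 to 1920 in CC P42 and from 1086 to 1139 in Cx P10 to 1576 to 1784 in Cx P42 (interaction 0.64, adjusted p = 0.042). Ctss, the lysosomal protease cathepsin S, went from 6264 ± 630 CPM (SD, n = 4) to 14807 ± 1924 in the CC and from 8289 ± 416 to 12678 ± 772 in the Cx (interaction 0.63, adjusted p = 0.0057). Cybb, the catalytic chain of the phagocyte NADPH oxidase, had 1.30 to 4.11 CPM in CC P10 and 7.59 to 27.6 in CC P42, while the Cx held 2.59 to 6.19 and 0.0528 to 5.71 (interaction 3.75, SE 0.88, adjusted p = 0.027). It was called by DESeq2 (adjusted p = 0.00051) and by edgeR without Cx P42 replicate 3 (4.71, adjusted p = 0.0038). Mitf, a regulator of lysosomal genes, had 12.9 to 31.0 CPM in CC P10 and 6.50 to 10.7 in Cx P10, with overlap at P42 (interaction -1.89, adjusted p = 0.027), and was called by DESeq2 (adjusted p = 0.0016) and by edgeR without Cx P42 replicate 1 (-2.15, adjusted p = 0.0054). Gfap, a marker of astrocytes, had 2.08 to 8.90 CPM in CC P10 and no read in CC P42 (adjusted p = 0.060), and was called by DESeq2 (adjusted p = 0.0012). Of 9 astrocyte genes listed, edgeR called 0 (0.22% of all genes), limma-voom 0 and DESeq2 only Gfap. Their interaction was above 0 for 4 and below 0 for 5. Aqp4 and Mlc1 also had no read in CC P42. The summed level of the 9 genes was 111 to 136 CPM in CC P10 and 182 to 232 in CC P42. In the Cx it was 95.3 to 105 CPM at P10 and 220 to 284 at P42.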
